A study of Mus musculus with 9 samples.

Results

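The genes described here encode the proteins of the cytosolic ribosome, together with their paralogs, in mouse embryonic fibroblasts (MEFs) under hyperosmotic stress. They were taken by symbol from the protein-coding genes of the table as Rpl or Rps followed by a number and at most a letter or copy suffix, Rplp0 to Rplp2 and Rpsa, without the Rps6k kinases. This gave 85 of the 35275 genes listed. Of these, 48 belong to the large subunit and 32 to the small subunit, called core members below, and 5 are paralogs that are described apart: Rpl22l1, Rps27l, Rpl7l1, Rpl3l and Rpl39l. Wild type C57Bl/6 MEFs were left in iso-osmolar medium or treated for 3 h with sucrose, 200 mM added to reach 500 mOsm (low intensity) or 300 mM added to reach 600 mOsm (high intensity). Each treatment was sequenced as 3 libraries, 9 in all, from poly-T enriched mRNA. No label says whether the 3 libraries of a treatment came from separate cultures, so p-values measure the spread between these libraries, which may be technical.

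A ribosome is built from a small subunit, which reads the mRNA, and a large subunit, which joins the amino acids. Each subunit holds ribosomal RNA and one copy of most of its proteins, so the protein genes are usually expressed at matched levels. Their mRNAs are short and abundant, and most begin with a cytosine followed by a run of pyrimidines, the 5′ terminal oligopyrimidine (TOP) motif, through which mTORC1 and the RNA-binding protein Larp1 set their translation and stability. Some ribosomal proteins have paralogs that can replace them in particular tissues, and some act outside the ribosome, for example in stabilizing p53 when ribosome assembly fails.

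The libraries held between 21716042 and 26740832 counts on genes, so that 3 counts, taken as a floor for counting error only, stood for 0.112 to 0.138 CPM (a gene's counts brought to the same total in every library). Of 10 fibroblast markers, Col1a1, Vim and Fn1 were abundant, whereas Dcn and Lum had 3 or fewer counts in every library. Summed over the list, the fibroblast markers lay between 20152 and 21352 CPM in iso-osmolar libraries, between 20204 and 21066 CPM at 500 mOsm and between 22809 and 24539 CPM at 600 mOsm. Nearly all of the rise at 600 mOsm came from Col1a1 and Col1a2, while Vim lay between 3656 and 3852 CPM at 500 mOsm and between 3748 and 3797 CPM at 600 mOsm. Of the 8 fibroblast markers tested, 4 were higher and 0 lower between 600 and 500 mOsm, beside 11.9% and 17.2% of all genes. Between 600 mOsm and iso-osmolar medium 3 were higher and 2 lower, beside 15.1% and 20%. Pdgfra went from 38, 38.5 and 36.7 CPM in iso-osmolar medium to 21.9, 26.7 and 22.1 CPM at 600 mOsm. Col3a1 went from 48.2, 50.9 and 43.3 CPM to 29.5, 28.8 and 32.5 CPM. The 4 endothelial markers summed to between 11.9 and 13.4 CPM at 500 mOsm, against 0.778 to 0.899 CPM in iso-osmolar medium and 2.13 to 3.18 CPM at 600 mOsm, with most of the 500 mOsm sum from Pecam1 (10.6 to 12 CPM) and Cdh5 at 0.491 to 0.678 CPM there. The 5 epithelial markers, Epcam and Krt5 at 3 or fewer counts everywhere, summed to between 3.85 and 4.79 CPM at 500 mOsm and to at most 0.544 CPM elsewhere, mostly from Cdh1 at 500 mOsm. The 5 macrophage markers summed to between 15.7 and 20 CPM in iso-osmolar medium, between 24.2 and 35.9 CPM at 500 mOsm and between 18.4 and 29.2 CPM at 600 mOsm. Most of this came from Lyz2 and Csf1r. Lyz2 scattered, at 3.19 to 7.83, 4.59 to 18.5 and 6.3 to 17.7 CPM in the same order. Csf1r lay at 10.6 to 12, 14 to 15.3 and 9.4 to 10.6 CPM. In bulk samples fewer cells of a type and less RNA per cell cannot be told apart, and all values below are relative to the other mRNAs of the same library.

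The pyrimidine run can be read in the genome at the annotated start of each gene. RefSeq promoter sequences (GRCm38.p6) were matched for 64 of the 85 genes, and the longest uninterrupted run of C and T that touched the 10 bases before or the 10 bases from the annotated start was taken. Such a run was followed to its end, also where it left the 30 bases around the start that are shown. The starts are those of the annotation and were not measured in these libraries. The windows below, 5′ to 3′ on the gene's strand with the longest run in capitals, were chosen to show a clear run in core members, members whose mRNA behaved apart from the rest, and both paralogs that carry a long run beside their parents.
Rps6, chr4:86857353-86857382, minus strand: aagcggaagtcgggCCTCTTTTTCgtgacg
Rpl7a, chr2:26910792-26910821, plus strand: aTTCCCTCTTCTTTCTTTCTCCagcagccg
Rplp2, chr7:141447636-141447665, plus strand: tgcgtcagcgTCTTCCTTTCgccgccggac
Rps12, chr10:23787195-23787224, minus strand: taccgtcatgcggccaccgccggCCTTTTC
Rpl10a, chr17:28328456-28328485, plus strand: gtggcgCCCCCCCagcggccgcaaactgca
Rpl37, chr15:5116598-5116627, plus strand: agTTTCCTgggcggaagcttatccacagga
Rps27, chr3:90213634-90213663, minus strand: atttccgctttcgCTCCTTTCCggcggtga
Rps27l, chr9:66946071-66946100, plus strand: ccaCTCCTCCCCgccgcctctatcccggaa
Rpl22, chr4:152325711-152325740, plus strand: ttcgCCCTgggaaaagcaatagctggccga
Rpl22l1, chr3:28805493-28805522, plus strand: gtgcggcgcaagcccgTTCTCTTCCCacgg
In Rps6 and Rps27 the run straddled the annotated start, in Rpl22l1 it began just after it, and in Rps12 it reached past the end of the window. Rpl37 and Rpl22 had only a short run ahead of the start. A run of at least 8 bases, of C or T in any order on the gene's strand, was found in 25 of 59 core members (42.4%) and in 13.3% of the 15789 protein-coding genes with a promoter. The annotated start was a C in 33.9% of core members and in 13.9% of those genes. A match in these letters is a description of the window and not of a start in use.

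Core members covered a wide range of FPKM (counts scaled to a common total and divided by the deposited gene length in kilobases). That length can exceed the mRNA, as in Rpl35a with 2858 bases against 519 in its longest protein-coding transcript. Rps15a, with a gene length of 5130 bases, had a mean of 309 CPM but 60.5 FPKM in iso-osmolar medium. Part of the range and order of FPKM therefore reflects these lengths. Rps2, a protein at the entry of the mRNA channel, had the highest level, with a mean of 5134 FPKM (SD 229, n = 3) in iso-osmolar medium, 5794 (SD 280) at 500 mOsm and 6268 (SD 397) at 600 mOsm. Rplp1, a protein of the stalk that recruits the elongation factors, followed in iso-osmolar medium at 2633 FPKM (SD 49.8) and Rpl32 at 2534 FPKM (SD 53.5). Rps2 stood well apart, whereas Rplp1 and Rpl32 differed by little more than the spread between libraries. The lowest core member that could be tested was Rpl23a, which lines the exit of the peptide tunnel, at 38.6 FPKM (SD 2.33). The transcripts of Rpl23a share at least 100 bases at 95% identity or more with those of 21 other genes, so reads that belong to it may have been left out or split.

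Reads can also be lost elsewhere in the family. Of the 85 genes, 80 share such a stretch with another gene, mostly processed copies, and 21 overlap another gene, and whether reads were counted by strand is not given in the sources used here. Rpl24 had between 0 and 3 counts in each library although every ribosome holds its protein. Its row overlaps another gene of the table, Gm28037, at 0 counts in all libraries. Rpl24 was not tested, and neither were Rpl10l, Rps4l and Rpl39l, which were at 2 or fewer counts in every library. The remaining 81 genes, 77 of them core members (46 large, 31 small), passed the filter on low counts with 13082 genes in all.

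The share of all counts that fell on the 80 core members was 6.906%, 6.892% and 6.945% in the iso-osmolar libraries. It was 6.928%, 7.090% and 7.238% at 500 mOsm and 8.012%, 7.891% and 8.043% at 600 mOsm. Every library at 600 mOsm was therefore above all 6 others, whereas iso-osmolar and 500 mOsm libraries overlapped. The large subunit took 3.854% ± 0.0242 (SD, n = 3), 3.883% ± 0.0883 and 4.378% ± 0.0317 in the same order. The small subunit took 3.06% ± 0.0103, 3.203% ± 0.0683 and 3.604% ± 0.0527. The ratio of large-subunit to small-subunit counts was 1.259 ± 0.00814 in the iso-osmolar libraries, 1.212 ± 0.00666 at low and 1.215 ± 0.0112 at high intensity. Without Rps2 this ratio was 1.542 ± 0.00551, 1.512 ± 0.0137 and 1.5 ± 0.00361, so the step at 500 mOsm was smaller once the most counted gene was left out. Without Rps2 the core share was 6.352%, 6.452% and 7.297% on average.

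**Figure D1:**
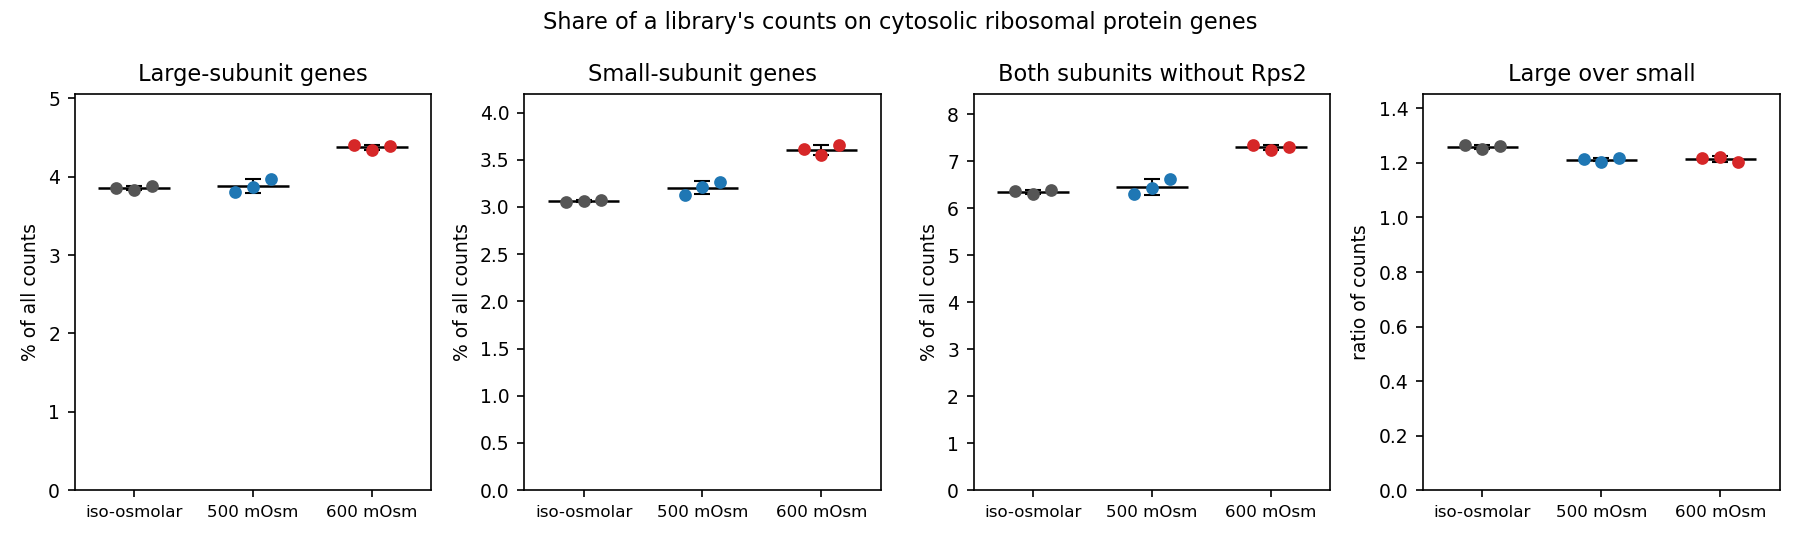
Share of each library's counts on large-subunit genes, small-subunit genes and both without Rps2 (y axes, percent of all counts), and the ratio of large to small counts. Points are the 3 libraries of a treatment, the bar is their mean and the whiskers 1 SD; the 600 mOsm libraries lie above the others in the 3 share panels, and the iso-osmolar libraries lie highest in the ratio.

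Whether high-intensity stress differs from low-intensity stress was the comparison the study was built around. Between 600 and 500 mOsm, 67 of the 77 core members tested (87%) were higher at 600 mOsm and 0 were lower (edgeR's quasi-likelihood test, Benjamini-Hochberg adjusted p under 0.05 over all genes). Of all 13082 genes tested, 11.9% were higher and 17.2% lower. The changes were small and alike. The median log2 fold change of the core was 0.20, with quartiles of 0.17 and 0.23 and a range from -0.0027 to 0.37, beside a median of 0.0061 over all genes, and 76 of 77 were above 0. At an unadjusted p under 0.05, the count of core members lower was also 0, and DESeq2 called 69 higher and 0 lower. In 65 core members every library at 600 mOsm lay above every library at 500 mOsm, and in 0 below, as in 19.3% and 22.3% of all genes. The ribosome was singled out by the study on these same libraries, so these counts are not independent evidence of a direction. The summed fibroblast markers moved the same way, through Col1a1 and Col1a2, and their part in the result was not tested.

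In the large subunit, 41 of 46 genes were higher at 600 than at 500 mOsm, 0 were lower, and the median log2 fold change was 0.20. Rpl7, a protein on the surface of the large subunit, measured 594, 566 and 608 CPM at 500 mOsm and 703, 717 and 697 CPM at 600 mOsm. No library of one intensity reached the other, and the log2 fold change was 0.26 (SE 0.0414, adjusted p = 0.000459, edgeR), the smallest p of the core. Rpl32 measured 1212, 1247 and 1364 CPM at 500 mOsm and 1540, 1523 and 1598 CPM at 600 mOsm, a log2 fold change of 0.29 (SE 0.0481, adjusted p = 0.000696, edgeR). Its libraries also did not overlap. Rpl39, a short protein of the peptide exit tunnel, measured 353, 344 and 358 CPM at 500 mOsm and 441, 394 and 448 CPM at 600 mOsm (log2 fold change 0.28, adjusted p = 0.00152, edgeR). Rpl35, also at the tunnel exit, had the largest change of the core at 0.37 (SE 0.111, adjusted p = 0.0246, edgeR) but also the widest spread, with 119, 107 and 98.0 CPM at 500 mOsm and 140, 115 and 162 CPM at 600 mOsm. One 600 mOsm library of Rpl35 lay below one at 500 mOsm, and the gene overlaps Wdr38. The call on Rpl35 was lost without 600 mOsm library 3 (0.24, adjusted p = 0.108), library 1 (0.37, adjusted p = 0.0676) or 500 mOsm library 3 (0.31, adjusted p = 0.0921, edgeR), and with the replicate block (0.36, adjusted p = 0.0538, edgeR).

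The large-subunit genes that were not called were Rpl13a, Rpl23a, Rpl29, Rpl37 and Rpl4. Rpl37 was the single core member with a negative value. It measured 1311, 1330 and 1300 CPM at 500 mOsm and 1399, 1287 and 1251 CPM at 600 mOsm, and the 600 mOsm libraries lay on both sides of the others (log2 fold change -0.0027, SE 0.0463, adjusted p = 0.975, edgeR). The sign of Rpl37 turned under no filter on low counts (0.0179), so it has no stable direction. Rpl29 had a log2 fold change of 0.03 (SE 0.0595, adjusted p = 0.746, edgeR), and its transcript shares sequence with those of 35 other genes. Rpl23a (0.27, SE 0.0980, adjusted p = 0.0568) and Rpl4 (0.11, SE 0.0437, adjusted p = 0.0757, edgeR) had positive values that did not pass.

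The 3 proteins of the stalk, Rplp0, Rplp1 and Rplp2, which bring the elongation factors to the large subunit, were all higher at 600 than at 500 mOsm. Rplp0 measured 2176, 2309 and 2377 CPM at 500 mOsm and 2687, 2607 and 2675 CPM at 600 mOsm (log2 fold change 0.22, SE 0.0426, adjusted p = 0.00223, edgeR). Rplp1 had a log2 fold change of 0.17 (adjusted p = 0.00798, edgeR) and Rplp2, whose window above holds a run of 10 pyrimidines, one of 0.21 (adjusted p = 0.00508, edgeR). None of the 3 overlapped between the intensities.

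In the small subunit, 26 of 31 genes were higher at 600 than at 500 mOsm, 0 were lower, and the median log2 fold change was again 0.20. Rps10, a protein of the head of the small subunit, measured 902, 922 and 943 CPM at 500 mOsm and 1088, 1057 and 1105 CPM at 600 mOsm (log2 fold change 0.23, SE 0.0406, adjusted p = 0.000951, edgeR). These libraries did not overlap. Rps29, a short zinc-binding protein of the head, had the largest change of the subunit at 0.30 (SE 0.0750, adjusted p = 0.00940, edgeR), with 191, 169 and 173 CPM at 500 mOsm and 233, 190 and 234 CPM at 600 mOsm. The lowest 600 mOsm library of Rps29 lay just below the highest 500 mOsm one. The small-subunit genes not called were Rps13, Rps19, Rps2, Rps21 and Rps25. Rps2 measured 6252, 6720 and 5989 CPM at 500 mOsm and 6761, 6455 and 7548 CPM at 600 mOsm, which overlap (log2 fold change 0.13, SE 0.0645, adjusted p = 0.153, edgeR).

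**Figure D2:**
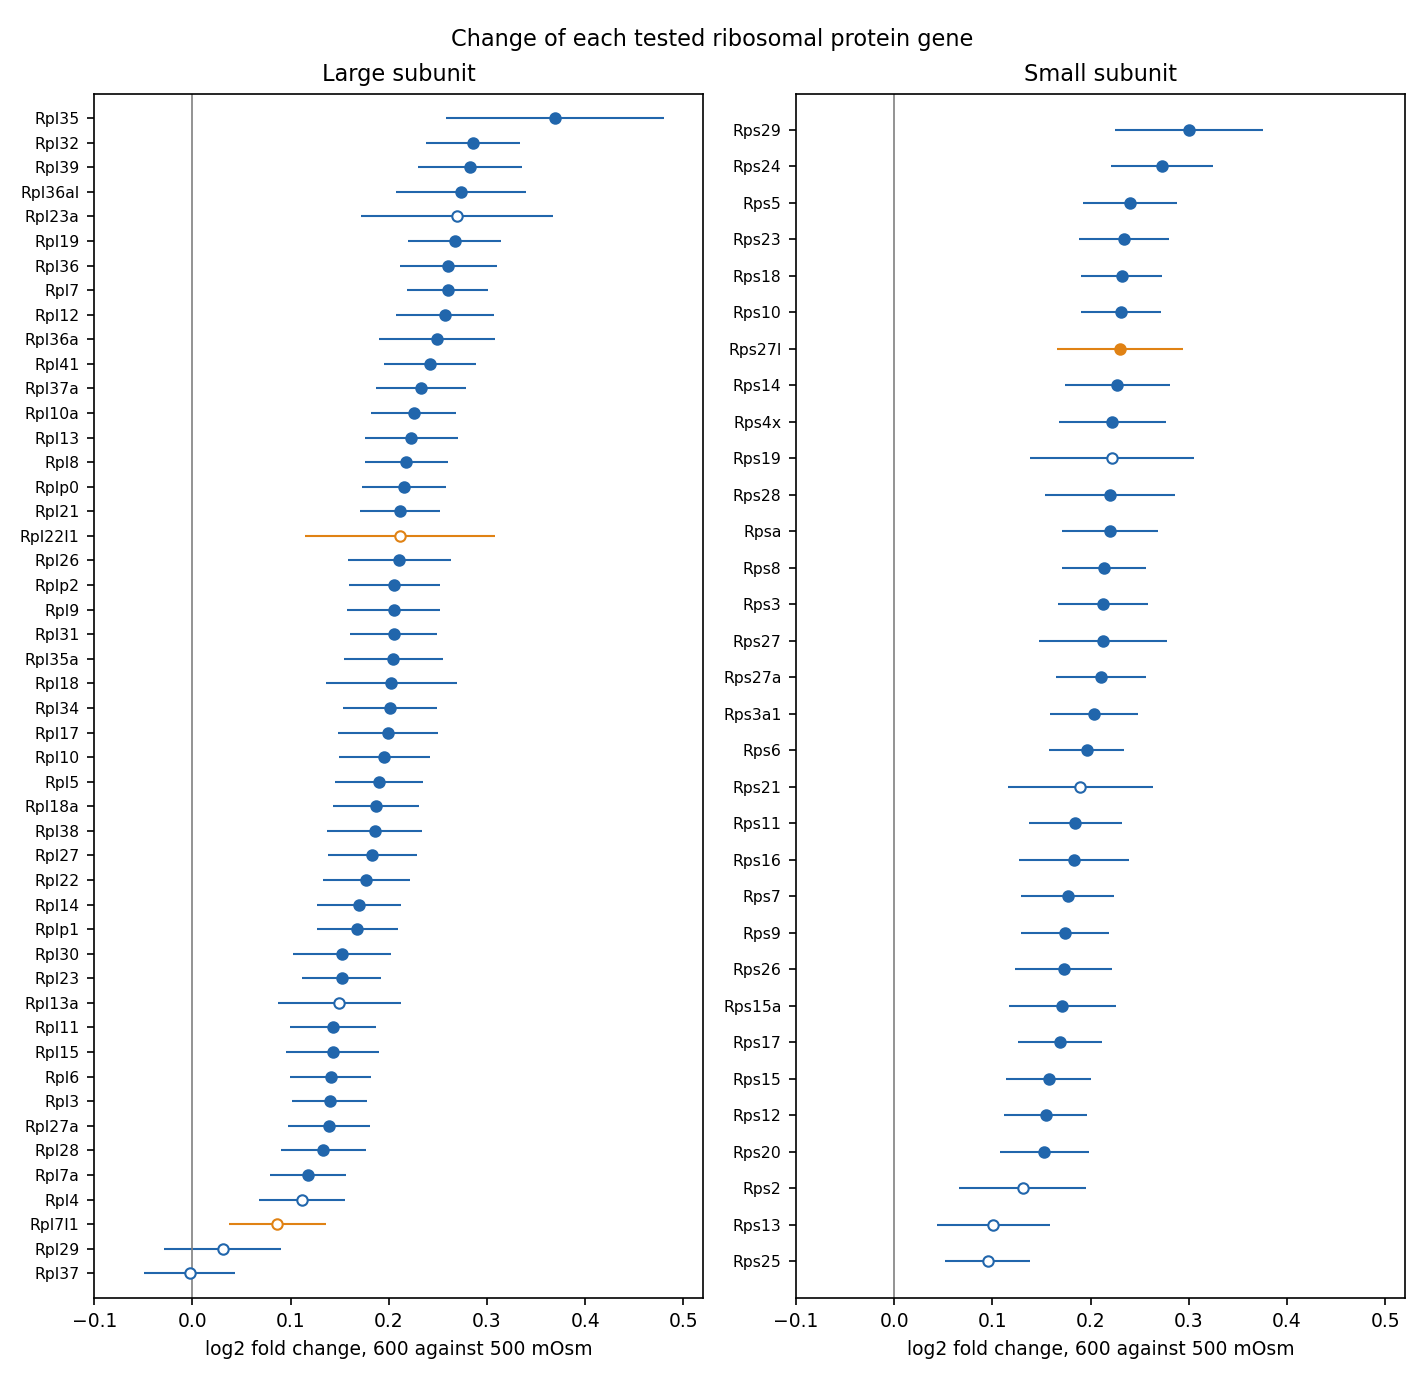
Log2 fold change between 600 and 500 mOsm (x axis, edgeR) of each tested gene of the large and small subunit, with bars of 1 standard error; filled points passed an adjusted p of 0.05, open points did not, and paralogs are orange. Rpl3l, at 2.14, lies off the axis and is not drawn; most genes lie between 0.1 and 0.3, and Rpl37 and Rpl29 lie nearest 0.

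Of 9 core members with a known role outside the ribosome, 8 (88.9%) rose from 500 to 600 mOsm and 0 fell. This share was close to the 87% of all core members tested, beside 11.9% of all genes higher and 17.2% lower. Rpl5 and Rpl11, which bind Mdm2 with the 5S ribosomal RNA and so free p53, rose by 0.19 (adjusted p = 0.00666) and 0.14 on the log2 scale (adjusted p = 0.0268, edgeR). Rpl11 measured 826, 882 and 848 CPM at 500 mOsm and 943, 911 and 970 CPM at 600 mOsm, with no overlap. Rpl23 and Rpl26, which also contact Mdm2 or the p53 mRNA, had values of 0.15 (adjusted p = 0.0128) and 0.21 (adjusted p = 0.00891, edgeR). Rps6, the substrate of the S6 kinases, measured 670, 662 and 676 CPM at 500 mOsm and 763, 762 and 775 CPM at 600 mOsm (0.20, SE 0.0381, adjusted p = 0.00195, edgeR), again with no overlap. Rps3, which also takes part in DNA repair, rose by 0.21 (adjusted p = 0.00372), Rpsa, the laminin receptor precursor, by 0.22 (adjusted p = 0.00474), and Rps27a, which is made as a fusion with ubiquitin, by 0.21 (adjusted p = 0.00416, edgeR). Rpl13a, which can leave the ribosome to silence inflammatory mRNAs, measured 1310, 1435 and 1279 CPM at 500 mOsm and 1465, 1402 and 1598 CPM at 600 mOsm. These libraries overlap, and Rpl13a did not pass (0.15, SE 0.0628, adjusted p = 0.0943, edgeR).

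At low intensity the core was close to its iso-osmolar level. Between 500 mOsm and iso-osmolar medium, 1 core member of 77 was higher and 1 lower, whereas 13.2% of all genes tested were higher and 14.8% lower. The median log2 fold change was 0.03, 0.02 in the large and 0.04 in the small subunit, beside 0.01 over all genes, and 60 of 77 values were above 0. Rps12, a small-subunit protein at the beak, was the member that was higher. It measured 961, 911 and 914 CPM in iso-osmolar medium, 1043, 1015 and 1056 CPM at 500 mOsm and 1195, 1151 and 1119 CPM at 600 mOsm. The 3 treatments of Rps12 lay in steps without overlap, with log2 fold changes of 0.16 at 500 mOsm (SE 0.0427, adjusted p = 0.0127) and a further 0.15 at 600 mOsm (SE 0.0427, adjusted p = 0.0165, edgeR). Both calls on Rps12 were lost without single libraries, the step at 500 mOsm without iso-osmolar library 2 or 3 (adjusted p = 0.0572 and 0.0605) and the further step without 500 mOsm library 2 or 600 mOsm library 1 (adjusted p = 0.0550 and 0.0744, edgeR), and the latter was -0.0071 under a correction for GC content and length.

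Rpl10a, a protein of the L1 stalk where tRNAs leave, was the member that was lower at 500 mOsm. It measured 592, 596 and 614 CPM in iso-osmolar medium, 549, 534 and 533 CPM at 500 mOsm and 619, 610 and 661 CPM at 600 mOsm. The 500 mOsm libraries lay below all others. The log2 fold change was -0.16 at 500 mOsm against iso-osmolar medium (SE 0.0435, adjusted p = 0.0166, and 0.0666 without iso-osmolar library 3) and 0.23 between 600 and 500 mOsm (SE 0.0435, adjusted p = 0.00185, edgeR). Between 600 mOsm and iso-osmolar medium Rpl10a differed by 0.07 (SE 0.0434, adjusted p = 0.240, edgeR), with libraries that overlap. Rps2 measured 5309, 5914 and 5545 CPM in iso-osmolar medium, below every 500 mOsm library, but its value of 0.18 did not pass (SE 0.0645, adjusted p = 0.0582, edgeR). It passed under 9 of the 21 alternatives tried. In 11 core members every 500 mOsm library lay above every iso-osmolar one, and in 1 below, whereas this held for 20.1% and 20.8% of all genes.

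At high intensity against iso-osmolar medium, 70 of 77 core members were higher and 0 lower, where 15.1% of all genes tested were higher and 20% lower. The median log2 fold change was 0.24 over the core, 0.22 in the large subunit with 40 of 46 higher, and 0.25 in the small subunit with 30 of 31 higher, beside 0.0075 over all genes. In 72 core members every 600 mOsm library lay above every iso-osmolar one, and in 0 below, as in 22.9% and 25.5% of all genes. Rpl21 measured 383, 379 and 377 CPM in iso-osmolar medium, 410, 395 and 419 CPM at 500 mOsm and 475, 481 and 462 CPM at 600 mOsm. The treatments did not overlap, and the change to 600 mOsm was 0.32 (SE 0.0406, adjusted p = 7.7e-05, edgeR). Rpl7 rose by 0.32 as well, from 563, 558 and 575 CPM in iso-osmolar medium (SE 0.0414, adjusted p = 7.9e-05, edgeR). The largest change was that of Rpl36al, an autosomal relative of Rpl36a, with 83.3, 89.8 and 86.3 CPM in iso-osmolar medium and 109, 105 and 122 CPM at 600 mOsm (0.37, SE 0.0663, adjusted p = 0.000910, edgeR). Rps28 and Rpl39 followed at 0.33 and 0.32. The 3 stalk genes were higher with values from 0.25 to 0.28. Comparisons of 600 mOsm share the same 3 libraries, and both comparisons with iso-osmolar medium share theirs, so the 3 sets of calls are not independent.

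Across the 3 comparisons, 62 of 77 core members were higher at 600 mOsm against both other treatments without a call between 500 mOsm and iso-osmolar medium. Rps12 was higher in all 3. A further 7 were higher at 600 mOsm against iso-osmolar medium alone, and Rpl3, Rpl15 and Rpl35 against 500 mOsm alone. Rpl29, Rpl37 and Rps13 were called in none of the 3. By treatment means, 59 core members had the order iso-osmolar, 500 mOsm, 600 mOsm from low to high. In 17 the 500 mOsm mean was the lowest, and in Rpl37 the 600 mOsm mean was the lowest.

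**Figure D3:**
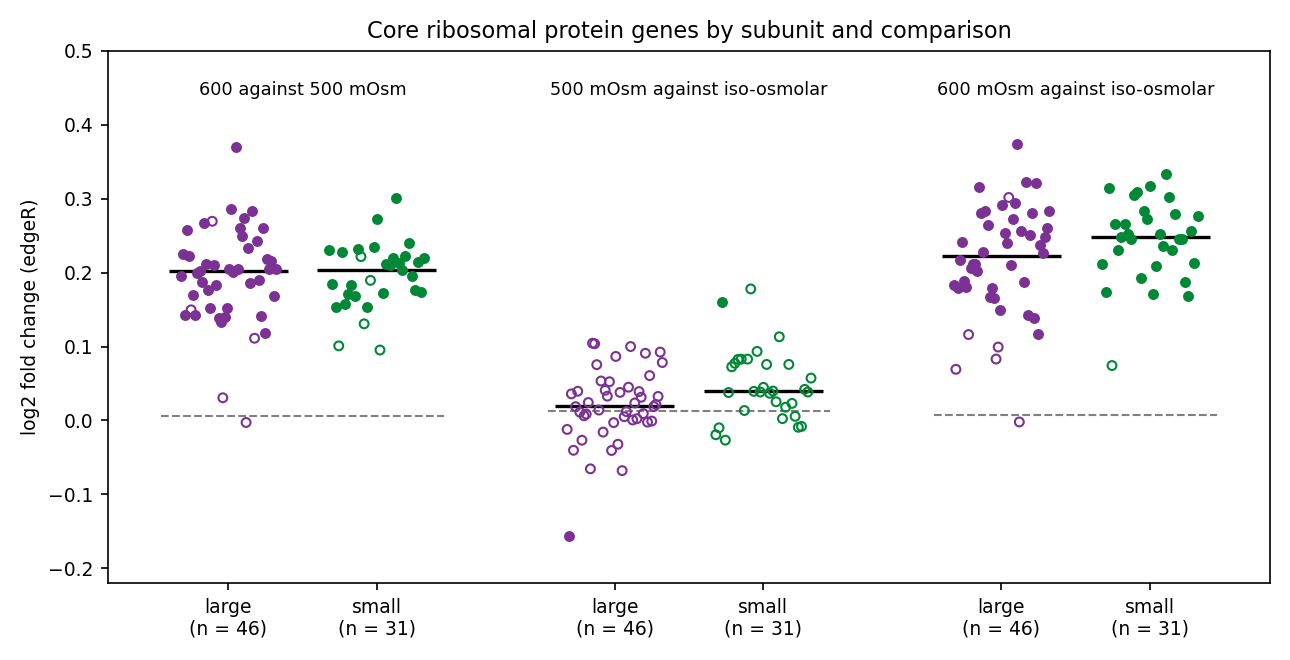
Log2 fold changes (y axis, edgeR) of the 46 large-subunit and 31 small-subunit core members tested in the 3 comparisons. Each point is a gene, filled where the adjusted p was under 0.05; solid bars are subunit medians and dashed lines the median of all genes tested, and both subunits lie near 0.2 in the comparisons of 600 mOsm and near 0 in the other.

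Ribosomal protein mRNAs are short, and a larger share of other short mRNAs than of all genes was higher at 600 mOsm. The median length of the core members tested was 935 bases, against 3020 over all genes tested, and the median GC content of the transcripts was 51.8% against 50.6%. Of 596 protein-coding genes under 1000 bases that are no members, 167 (28%) were higher and 30 (5.03%) lower at 600 than at 500 mOsm. This stood beside 11.9% and 17.2% of all genes. The other 399 were not called, and the median log2 fold change was 0.15. Against iso-osmolar medium 220 of the 596 (36.9%) were higher at 600 mOsm and 30 lower, beside 15.1% and 20% of all genes, with a median of 0.20. After a correction of each library for GC content and length, 40 core members were higher at 600 than at 500 mOsm (median 0.11) and 45 against iso-osmolar medium (median 0.14), with 0 lower in either comparison. The corrected medians over all genes were 0.0098 and 0.047. Over all genes the correction also moved the calls, to 2000 higher and 2176 lower between 600 and 500 mOsm (1560 and 2250 without it), to 2904 and 2278 against iso-osmolar medium (1977 and 2617), and to 2699 and 1963 between 500 mOsm and iso-osmolar medium (1728 and 1931). By subunit, 25 large and 15 small members were called between 600 and 500 mOsm. Within the core, length and the change between 600 and 500 mOsm had a Pearson's r of -0.100 over 77 genes, and GC content one of 0.070, as a description across genes that share the same libraries. Of the genes named above, Rps10 (0.09, adjusted p = 0.350), Rps29 (0.13, adjusted p = 0.159) and Rps27 (0.04, adjusted p = 0.509, edgeR) lost their call between 600 and 500 mOsm under it, while Rpl7, Rpl32 and Rpl39 kept theirs. The part of length in the result was tested only by this correction.

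**Figure D4:**
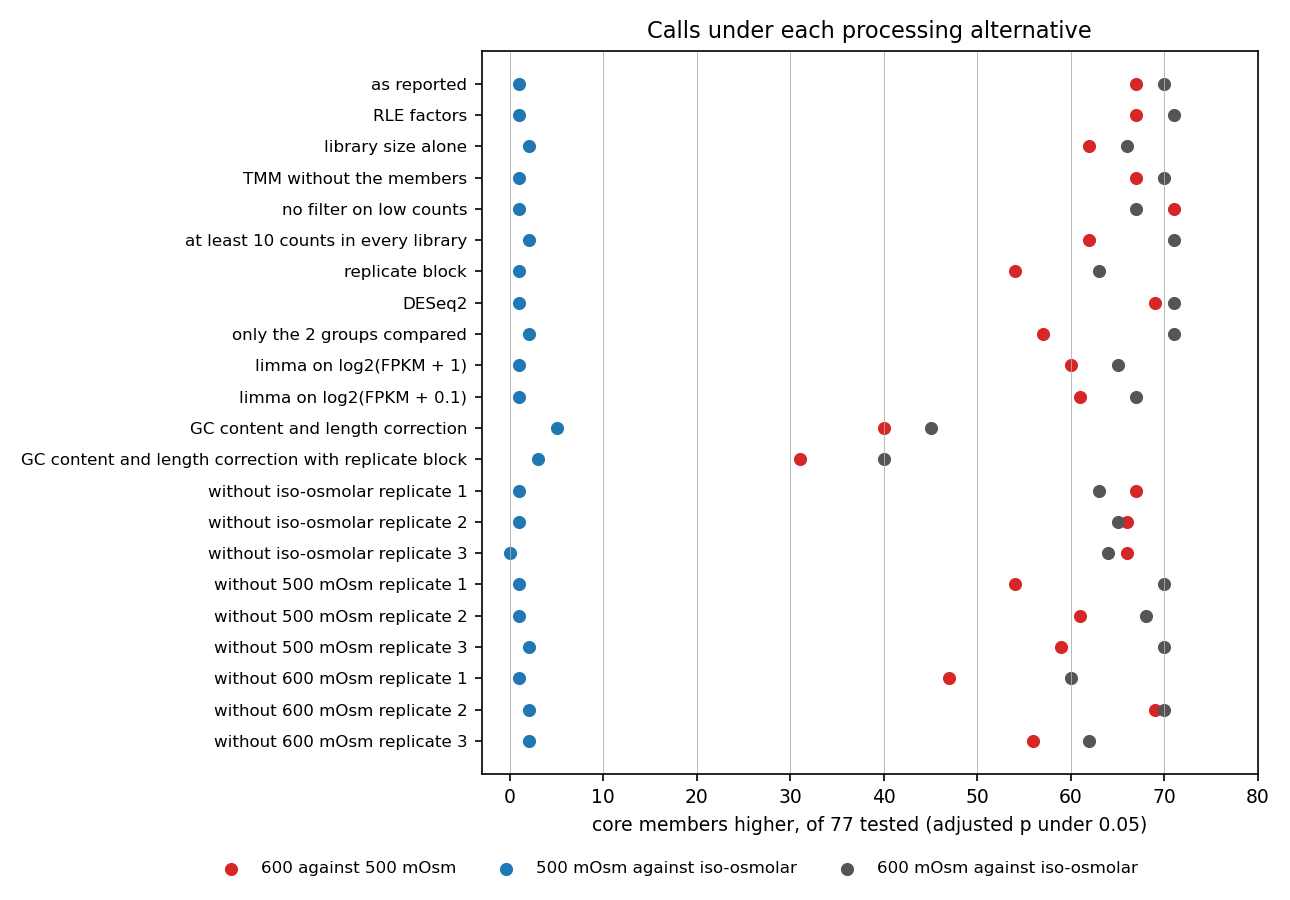
Number of core members higher, of 77 tested (x axis), in each comparison when choices of the processing were changed (rows). The counts for 600 mOsm fall to 40 and 45 under the correction for GC content and length. They are lowest, at 31 and 40, with the replicate block added to it. The count for 500 mOsm against iso-osmolar medium is between 0 and 5 throughout.

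The 5 paralogs did not move as one group. Rps27l, the copy of Rps27 that p53 induces, measured 145, 129 and 129 CPM in iso-osmolar medium, 122, 129 and 142 CPM at 500 mOsm and 156, 150 and 156 CPM at 600 mOsm. The 600 mOsm libraries lay above all others, with a log2 fold change of 0.23 against 500 mOsm (SE 0.0642, adjusted p = 0.0173) and 0.20 against iso-osmolar medium (SE 0.0643, adjusted p = 0.0292, edgeR). These calls on Rps27l were lost under the correction for GC content and length, with 0.09 (adjusted p = 0.327) and 0.03 (adjusted p = 0.765, edgeR), and the first was also lost without 500 mOsm library 1 (0.18, adjusted p = 0.0773), 500 mOsm library 2 (0.23, adjusted p = 0.0518) or 600 mOsm library 1 (0.22, adjusted p = 0.0577, edgeR). The second was lost in 10 of 21 alternatives. Rps27 itself rose by 0.21 between 600 and 500 mOsm (SE 0.0652, adjusted p = 0.0273, edgeR), a call lost with the replicate block (adjusted p = 0.0655) and without 4 of the 6 libraries compared, 1 at a time (adjusted p = 0.0891 to 0.108, edgeR). The coding sequences of the pair are 76.08% identical, and their transcripts share no exact run longer than 11 bases. Counts on Rps27l were 30.9% ± 1.55 (SD, n = 3) of those on Rps27 without added sucrose, 29.6% ± 3.37 at low and 29.9% ± 1.8 at high intensity, differences within the spread of the libraries.

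Rpl22l1, whose level Rpl22 is known to hold down, measured 17.3, 13.6 and 15.2 CPM in iso-osmolar medium, 14.5, 13.8 and 14.5 CPM at 500 mOsm and 17.0, 15.3 and 17.2 CPM at 600 mOsm. It was called in none of the comparisons, with 0.21 between 600 and 500 mOsm (SE 0.0968, adjusted p = 0.124, edgeR), although those libraries did not overlap. Rpl22 measured 278, 293 and 294 CPM at 500 mOsm and 328, 316 and 335 CPM at 600 mOsm and rose by 0.18 (SE 0.0444, adjusted p = 0.00966, edgeR). Rpl22l1 counts were 5.71% ± 0.582 (SD, n = 3) of those on Rpl22 without added sucrose, 4.96% ± 0.264 at low and 5.06% ± 0.18 at high intensity. The coding sequences are 67.53% identical. Rpl36al counts stood at 23.4% ± 2.49, 24.2% ± 1.36 and 24.5% ± 1 of those on Rpl36a (SD, n = 3).

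Rpl7l1, a relative of Rpl7 linked to assembly of the large subunit, did not follow its parent. It measured 302, 300 and 304 CPM in iso-osmolar medium, 265, 294 and 300 CPM at 500 mOsm and 309, 302 and 301 CPM at 600 mOsm. The differences were 0.09 between 600 and 500 mOsm (SE 0.0493, adjusted p = 0.218) and 0.01 between 600 mOsm and iso-osmolar medium (SE 0.0493, adjusted p = 0.910, edgeR). Since Rpl7 rose, counts on Rpl7l1 went from 53.7%, 53.8% and 52.9% of those on Rpl7 in iso-osmolar medium through 44.6%, 51.9% and 49.3% at 500 mOsm to 43.9%, 42.1% and 43.1% at 600 mOsm. The treatments did not overlap. The log2 difference of the ratio was -0.31 between 600 mOsm and iso-osmolar medium, -0.17 between 600 and 500 mOsm and -0.14 between 500 mOsm and iso-osmolar medium. An exact two-sided permutation test gave p = 0.1 for each, the smallest value that 3 against 3 libraries allow, and 0.4 after adjustment over the 12 comparisons of 4 pairs. Part of the Rpl7l1 transcript is shared with those of 107 other genes, so its counts are uncertain.

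Rpl3l, which takes the place of Rpl3 in heart and skeletal muscle, was nearly silent in iso-osmolar medium, with 4, 1 and 0 counts. It had 7, 18 and 17 counts at 500 mOsm and 73, 50 and 51 counts at 600 mOsm. The treatments did not overlap. Per total count, the level at 600 mOsm was 4.38 times that at 500 mOsm (95% interval for counting error 3.11 to 6.29) and 33.7 times that in iso-osmolar medium (14.2 to 105). The level at 500 mOsm was 7.7 times the iso-osmolar one (3.05 to 24.9). The folds against iso-osmolar medium rest on 5 counts, 4 of them in library 1. Fitted log2 fold changes of 5.00 at 600 mOsm and 2.85 at 500 mOsm became 6.57 and 4.42 without iso-osmolar library 1, 4.42 and 2.27 without library 3, and 1.37 and 0.40 on the log2(FPKM + 1) scale (edgeR and limma). Rpl3l passed the filter on low counts only through the 600 mOsm libraries, so no p is given for it. At 600 mOsm its mean level was 1.75 FPKM (SD 0.412, n = 3), against 708 FPKM for Rpl3 (SD 19.1). Rpl3 itself rose by 0.14 between 600 and 500 mOsm (SE 0.0382, adjusted p = 0.0154, edgeR), a call lost without 600 mOsm library 1 (adjusted p = 0.0621), with only those 2 groups compared (adjusted p = 0.0563) and under the GC and length correction with the replicate block (adjusted p = 0.0647, edgeR).

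Rpl3l lies on chromosome 17 between Ndufb10, 3341 bases before it, and Msrb1, which begins 498 bases after it. Rps2, on the same strand as Rpl3l, lies beyond Ndufb10 and ends 5890 bases before Rpl3l. No other gene shares 100 bases at 95% identity with Rpl3l. Msrb1, for the repair of oxidized methionine, differed on the log2 scale by 0.06 (adjusted p = 0.577) between 600 and 500 mOsm and by 0.17 (adjusted p = 0.0880, edgeR) between 600 mOsm and iso-osmolar medium. Ndufb10, a subunit of mitochondrial complex I on the opposite strand, rose by 0.26 (adjusted p = 0.00130, edgeR) between 600 and 500 mOsm. The 8 muscle markers summed to between 51.7 and 53.7 CPM in iso-osmolar medium, between 53.4 and 53.5 CPM at 500 mOsm and between 48.4 and 53.2 CPM at 600 mOsm. Nearly all of this came from Tnnt2, and Myog and Myh6 had 3 or fewer counts in every library. Tnnt2 measured 53.4, 53.1 and 51.6 CPM in iso-osmolar medium and 47.1, 52 and 48 CPM at 600 mOsm, with libraries that overlap. Acta1, at far lower counts, measured 0.182, 0.246 and 0.0409 CPM in iso-osmolar medium, 0.573, 0.264 and 0.495 CPM at 500 mOsm and 0.837, 0.716 and 0.734 CPM at 600 mOsm. The muscle markers thus had no common direction.

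Rpl39l and Rpl10l, which replace Rpl39 and the X-linked Rpl10 in male germ cells, were at or near 0. Rpl39l had 1 count in each of 2 libraries and 0 in the others, and Rpl10l had 0 in all 9, which allows up to 0.138 CPM in the shallowest library. The germ cell markers Tnp1, Ddx4, Dazl and Sycp3 also had 3 or fewer counts in every library. Rpl39 and Rpl10, their parents, were higher at 600 than at 500 mOsm, by 0.28 and 0.20 on the log2 scale.

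**Figure D5:**
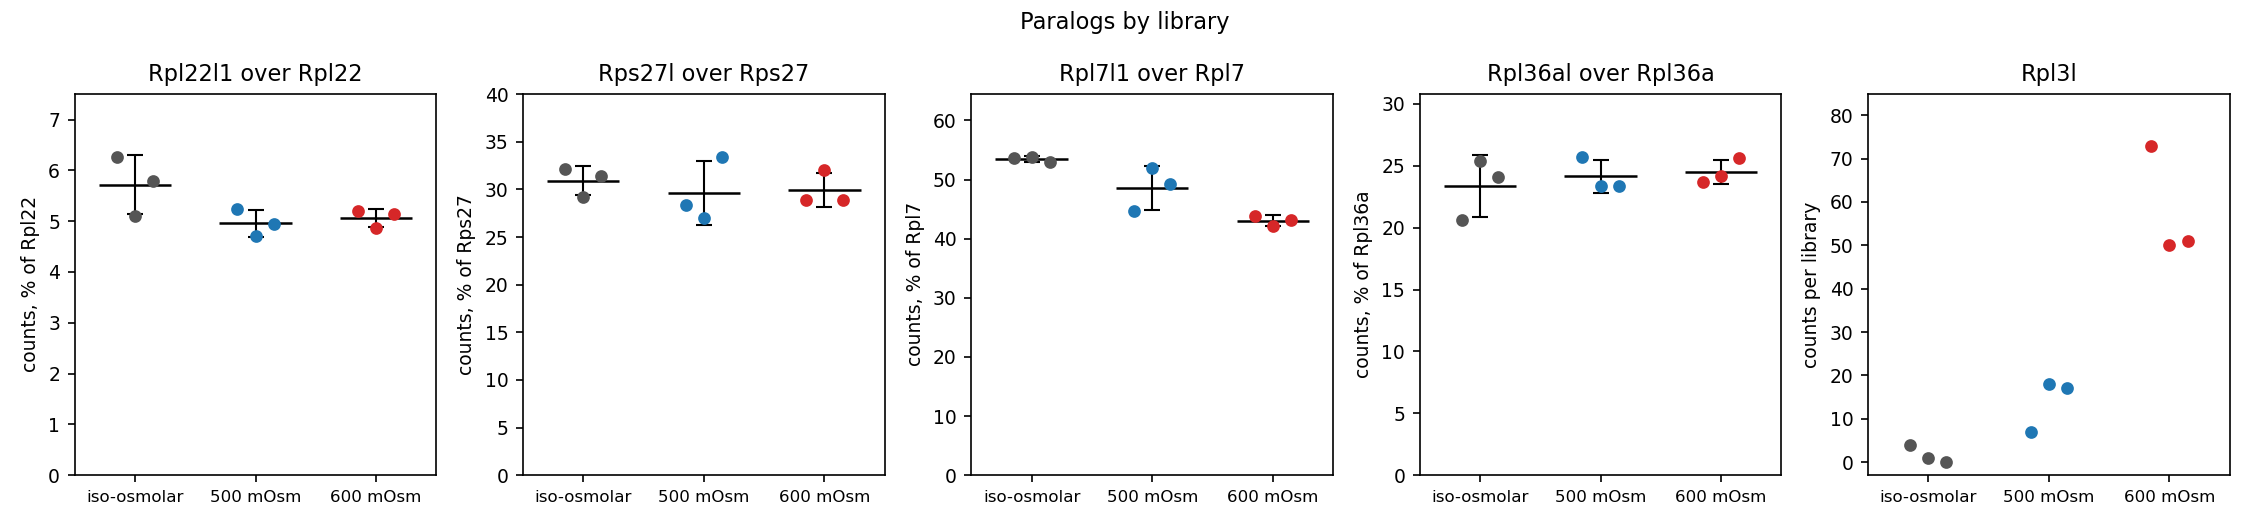
Counts on 4 paralogs as a percent of those on their parent gene, and the counts on Rpl3l, in each library (y axes). Points are libraries, bars the mean and whiskers 1 SD; Rpl7l1 over Rpl7 steps down from about 53.5% to 43.1% without overlap of the treatments, the other ratios overlap, and Rpl3l steps up from at most 4 counts to at least 50.

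Genes that stand close to the ribosomal proteins in function were counted beside them. Of 20 other mRNAs with a TOP motif, mostly translation factors, 13 (65%) were higher and 3 (15%) lower at 600 than at 500 mOsm, beside 11.9% and 17.2% of all genes, with a median log2 fold change of 0.18. Those called include Gnb2l1, the small-subunit protein Rack1, at 0.21 (adjusted p = 0.00150), the initiation factor subunit Eif3h at 0.24 (adjusted p = 0.00157), and, in the other direction, the poly(A)-binding protein Pabpc1 at -0.23 (adjusted p = 0.00450, edgeR). Eif4b and Hnrnpa1 were also lower, at -0.13 and -0.21. Against iso-osmolar medium, 500 mOsm gave 2 higher and 1 lower, and 600 mOsm gave 8 higher and 2 lower, beside 13.2% and 14.8%, and 15.1% and 20%, of all genes. Gas5, a TOP transcript that encodes no protein and hosts small nucleolar RNAs, had the smallest p of the list in both. It measured 65.3, 59.1 and 71.1 CPM in iso-osmolar medium, 48.0, 44.6 and 50.5 CPM at 500 mOsm and 41.8, 42.8 and 39.8 CPM at 600 mOsm. The treatments of Gas5 stepped down without overlap, by -0.45 (SE 0.0740, adjusted p = 0.000503) and -0.65 (SE 0.0747, adjusted p = 2.96e-05, edgeR) against iso-osmolar medium.

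Of 18 regulators of TOP mRNAs, 0 were higher and 1 was lower between 600 and 500 mOsm, and 1 was higher and 1 lower between 600 mOsm and iso-osmolar medium, shares (at most 5.56%) below the 11.9% and 17.2%, and 15.1% and 20%, of all genes. The one that was lower in both was Larp1, which binds the TOP motif. It measured 696, 690 and 690 CPM in iso-osmolar medium, 617, 616 and 626 CPM at 500 mOsm and 449, 457 and 429 CPM at 600 mOsm. The treatments lay in steps without overlap, with log2 fold changes of -0.16 at 500 mOsm (SE 0.0398, adjusted p = 0.00948) and a further -0.48 at 600 mOsm (SE 0.0399, adjusted p = 2.3e-06, edgeR). Rptor, which brings substrates to mTORC1, was higher by 0.25 at 600 mOsm against iso-osmolar medium (adjusted p = 0.00361, edgeR). Of these 18, 1 (5.56%) was higher and 3 (16.7%) were lower between 500 mOsm and iso-osmolar medium, beside 13.2% and 14.8% of all genes. The smallest p was that of Eif4ebp2, an inhibitor of cap-dependent initiation that mTORC1 phosphorylates (-0.25, SE 0.0542, adjusted p = 0.00348, edgeR).

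Among 16 genes that act in the transcription or handling of ribosomal proteins, 1 rose and 6 fell between 500 and 600 mOsm, and against iso-osmolar medium 0 rose and 7 fell at 600 mOsm. The shares that fell were 37.5% and 43.8%, beside 17.2% and 20% of all genes. Myc, which drives transcription of ribosomal protein genes, measured 322, 294 and 341 CPM at 500 mOsm and 118, 110 and 119 CPM at 600 mOsm and was lower by a log2 fold change of -1.46 (SE 0.0575, adjusted p = 2.15e-09, edgeR). Mdm2, the ligase of p53 that free Rpl5 and Rpl11 inhibit, was lower by -0.77 (adjusted p = 5.52e-06), and Yy1, a transcription factor found at ribosomal protein promoters, by -0.53 (adjusted p = 1.8e-05, edgeR). Grwd1, a chaperone of Rpl3, was the one that was higher, by 0.31 (adjusted p = 0.00503, edgeR). It was lower by -0.27 at 500 mOsm against iso-osmolar medium (adjusted p = 0.0101, edgeR), one of 2 such genes of the 16 (12.5%), and 0 were higher, beside 14.8% of all genes lower and 13.2% higher. The other was Sp1, a general transcription factor (-0.53, SE 0.0909, adjusted p = 0.000663, edgeR).

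The mitochondrial ribosome is made of other proteins, whose genes were counted in the same way. Of 76 tested, 19 were higher and 2 lower between 600 and 500 mOsm (median log2 fold change 0.13), 5 higher and 5 lower between 500 mOsm and iso-osmolar medium (0.01), and 29 higher and 2 lower between 600 mOsm and iso-osmolar medium (0.14). The shares higher were 25%, 6.58% and 38.2% in that order, beside 11.9%, 13.2% and 15.1% of all genes, and the median standard error between 600 and 500 mOsm was 0.0646, against 0.0467 in the core. Single members moved further than any core member did. Mrpl44 measured 25.9, 28.7 and 27.1 CPM in iso-osmolar medium, 14.0, 15.3 and 14.5 CPM at 500 mOsm and 24.3, 22.4 and 22.7 CPM at 600 mOsm. It was lower by -0.90 at 500 mOsm (SE 0.0752, adjusted p = 1.72e-06) and higher by 0.66 between 600 and 500 mOsm (SE 0.0756, adjusted p = 3.23e-05, edgeR). Mrpl45 had the opposite values, 0.53 and -0.44. Mrpl49 had the smallest p of the list between 600 mOsm and iso-osmolar medium, at 0.28 (SE 0.0516, adjusted p = 0.00126, edgeR). Rows of the table named as processed copies of ribosomal protein genes took 0.0402%, 0.0419% and 0.0458% of counts on average, and of the 67 tested, 3 were higher and 0 lower between 600 and 500 mOsm, 1 higher and 2 lower between 500 mOsm and iso-osmolar medium, and 9 higher and 1 lower between 600 mOsm and iso-osmolar medium. Between 600 and 500 mOsm this was 4.48% higher, beside 11.9% of all genes, with a median log2 fold change of 0.15 and, at their low counts, a median standard error of 0.204.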

How the data were processed

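RNA-seq of MEFs in iso-osmolar medium or at 500 or 600 mOsm was used, 3 libraries each. The authors deposited 1 table of 35275 genes with raw read counts and the FPKM made from them; per the submitters' processing notes, CASAVA 1.8, STAR and mm10 were used, and the counting tool is not given in the sources used here. The paired reads were 150 bases long. The authors' 18 columns of group means, log2 fold changes, p-values and adjusted p-values were not used. Counts were tested in R 4.3.3 with edgeR 4.0.16 (TMM, filterByExpr, quasi-likelihood test, all 9 libraries, treatment only, common biological coefficient of variation 0.0756), adjusted by Benjamini-Hochberg over 13082 genes at 0.05. CPM were computed on TMM-scaled library totals, and shares on unscaled counts. Ratios of paralog to parent counts needed 10 counts in every library. Alternatives were RLE factors, library size alone, TMM without the members, other filters, DESeq2 1.42.0, limma 3.58.1 on log2 FPKM plus 1 or 0.1, only the 2 groups compared, a replicate block, a correction for GC content and length, and each library left out. Scripts were tested on simulated data. Shared sequence was searched with blastn 2.17.0 in GENCODE transcripts (GRCm38), at least 100 bases at 95% identity, and promoter windows came from RefSeq (GRCm38.p6). Named genes are the paralogs with their parents, the stalk, members with other roles, the 3 core members per direction and comparison with the smallest p and, at a mean log2 CPM of at least 1, the largest change, core members called against the core's direction, members not tested, and the called gene with the smallest p per list and comparison; core members that were not called or were called in 1 comparison only, the genes beside Rpl3l, Rps6 and Rpl7a windows, Acta1, and further list genes (among them Eif3h, Pabpc1, Eif4b, Hnrnpa1, Rptor, Mdm2, Yy1, Grwd1 and Mrpl45) were named after their values were seen. The members, lists and alternatives were chosen with earlier results of these data known. Replicate numbers did not pair the libraries. One list of 2 genes is not reported here.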

Additional observations from a re-analysis of the deposited data

How the results depend on the processing

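Over 21 alternatives, no core member was lower at 600 mOsm, and the median of the core stayed above that of all genes in both comparisons of 600 mOsm. The correction for GC content and length moved the results most: between 600 and 500 mOsm 40 core members were higher (31 with the replicate block added, median 0.11 in both), between 600 mOsm and iso-osmolar medium 45 (40 with the block, median 0.14 in both), and between 500 mOsm and iso-osmolar medium 5 (3 with the block). That last count was 2 with library size alone, with at least 10 counts in every library and with only the 2 groups compared. Under the correction without the block, 15.4%, 22.3% and 20.7% of all genes were higher in the same order, with medians of 0.0098, 0.047 and 0.0441. The core median between 500 mOsm and iso-osmolar medium was then 0.029, below that of all genes. Leaving out each library gave 47 to 69, 60 to 70 and 0 to 2 core members higher in the same order, and 0 to 1 lower between 500 mOsm and iso-osmolar medium. The replicate block alone gave 54, 63 and 1, all of them also called without it. Deviations of same-numbered libraries from their group means correlated at -0.201 on average over 9 pairs, against 0.102 over the 18 other pairs, so the numbers do not pair the libraries. These averages are tied to each other, since deviations within a treatment cancel. Single pairs ran from -0.544 to 0.459 and from -0.277 to 0.51, the last for iso-osmolar 3 and 500 mOsm 1. High values joined iso-osmolar 2, 500 mOsm 2 and 600 mOsm 3 (0.459, 0.454 and 0.43). They also joined iso-osmolar 3, 500 mOsm 1 and 600 mOsm 2 (0.51, 0.355 and 0.37). The remaining libraries, iso-osmolar 1, 500 mOsm 3 and 600 mOsm 1, gave 0.441, 0.14 and 0.131. Pairs across these sets were mostly negative and reached 0.21. The sets were read from these same values. The replicate block does not cover a factor shared within them, and a fit with these sets was not run, so such a factor was not tested.

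Rpl3l passed the filter only through the 600 mOsm libraries, so its calls are no evidence of a change. It is nevertheless counted among the paralogs called in each comparison below. Apart from Rpl3l, only Rps27l was called, at 600 mOsm against each other treatment, and no paralog was called between 500 mOsm and iso-osmolar medium. Of 2 paralogs called between 600 and 500 mOsm, 1 was called with at least 10 counts in every library (where Rpl3l is not tested) and under the GC and length correction with or without the block, and 1 to 2 without single libraries. Between 500 mOsm and iso-osmolar medium the 1 call was that of Rpl3l. It fell to 0 with at least 10 counts in every library and with only the 2 groups compared, where Rpl3l fails the filter. Between 600 mOsm and iso-osmolar medium 1 of 2 was called with library size alone, at least 10 counts, the block, limma with either constant and the GC and length correction with or without the block, and 1 to 2 without single libraries.

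Of the genes whose sign turned, Rps12 had been called in that comparison and the others had not. Rps12 between 600 and 500 mOsm was -0.0071 under the GC and length correction (-0.0059 with the block), and the cause was not tested, here or for the other values. Under the same 2 settings Rpl22l1 was -0.1243 and -0.1267 and Rpl10a -0.0018 and -0.0010 between 600 mOsm and iso-osmolar medium. Rpl7l1 there was -0.0109 with library size alone, -0.0111 and -0.0112 under limma with 1 or 0.1 added, and -0.0034 to 0.0156 without single libraries. Rpl37 was 0.0179 between 600 and 500 mOsm with no filter (-0.0481 to 0.0324 without single libraries), and against iso-osmolar medium 0.0011 with RLE factors, 0.0023 with no filter, 0.0011 with DESeq2, 0.0034 with only the 2 groups compared and -0.0501 to 0.0310 without single libraries. Rps27l between 500 mOsm and iso-osmolar medium was -0.0920 to 0.0254 without single libraries. Log2 differences of paralog to parent ratios without single libraries ran from -0.0057 to 0.0708 for Rpl22l1 and from -0.0415 to 0.1120 for Rps27l between 600 and 500 mOsm. For Rpl36al they ran from -0.0098 to 0.0689 between 600 and 500 mOsm, from -0.0357 to 0.1158 between 500 mOsm and iso-osmolar medium and from -0.0129 to 0.1386 between 600 mOsm and iso-osmolar medium. The median standard error of a core member was 0.0467, which with 3 libraries a treatment limits how small a log2 change could be called.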
